A study of Mus musculus with 14 samples.

Results

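The genes described here encode the subunits of voltage-gated and potassium-selective ion channels, measured in brains of newborn and embryonic mice that carry a parental duplication of parts of chromosomes 7 and 15. Members were all probe sets whose annotated gene symbol began with Scn and a number, Kcn, Cacna, Cacnb, Cacng, or Hcn and a number, apart from 4 genes named in the rule. This gave 137 probe sets of 94 genes, among 12393 genes with a probe set of their own. Each gene was represented by the probe set with its highest mean log2 intensity; 61 genes had 1 probe set and 33 had several, with at most 5. Probe sets with a mean log2 intensity under the 40th percentile were not tested, which left 42 of the 94 genes in the tests and 52 outside them. The 42 were read against all 8156 genes tested.

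Neurons fire by opening voltage-gated sodium channels, and repolarise and set their resting potential with potassium channels. Voltage-gated calcium channels turn the voltage change into calcium entry, and most kinds are built from a pore-forming alpha1 subunit with alpha2delta and beta subunits. In the developing brain these channels are known to appear as neurons leave the cell cycle and begin to fire, and several of the genes named for calcium channel gamma subunits encode TARPs, proteins that carry AMPA-type glutamate receptors to the synapse.

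All mice were heterozygous for the T9H translocation (T9H/+), and each array used here held a brain with a duplication. Proximal chromosome 7 was duplicated from the mother and proximal chromosome 15 from the father in the mice called MatDp7 here, and the other way round in those called PatDp7. Neonatal cortex, neonatal cerebellum and brain at 15.5 days post coitum (dpc) were each measured on 4 arrays, 2 per duplication. Brain at 13.5 dpc was measured on 2 arrays, 1 per duplication. The labels call the replicates biological but name no animals or pools. The p-values therefore measure only the spread between these samples, which may be partly technical. Neonatal arrays of the same replicate number deviated together from their group means, with correlations of 0.71 to 0.816, but were fitted as independent. Standard errors and p-values of the neonatal against 15.5 dpc comparisons may therefore be too small. The exact neonatal age is not stated in the labels.

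The arrays had median intensities of 212.6 to 281.1. Replicate 1 of the neonatal groups, 4 arrays, differed from the other 10 in its brightest probe sets, with highest intensities of 43127 to 61172 against 17662 to 25858, and the counts of channel genes that rest on the neonatal arrays are therefore also given within each neonatal replicate number. The tissue labels were checked against regional marker genes. In cortex against cerebellum, 5 of 5 tested forebrain markers were higher and 6 of 10 tested hindbrain markers were lower. Intensities from the 14 arrays give no read counts, and the number of arrays limits the precision.

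The first comparison asked which channel genes differed between the neonatal brain regions and the 15.5 dpc brain. Of the 42 genes tested, 13 were higher in the 8 neonatal arrays than in the 4 at 15.5 dpc (limma adjusted p under 0.05). None was lower. An unadjusted p under 0.05 was reached by 26 of the 42 and by 4250 of all 13576 probe sets tested. Over all genes tested, 4.01% were called higher and 7.32% lower. The difference was positive for 35 of the 42 genes, with a median of 0.50 on the log2(intensity + 52.0) scale against a median of -0.025 over all genes tested. The filter took the mean over all arrays, most of them neonatal, so genes low in embryos could pass through their neonatal values. Among those tested, Cacnb4 had 92.3 to 125 at 15.5 dpc and 122 to 1051 in neonatal arrays. Kcna3 had 110 to 187 and 181 to 1358. All genes tested passed the same filter, and every count among the 42 genes shares this limit. Over all 94 genes without the filter the median was 0.33, against 0.043 over all 12393 genes. Because a constant was added before the logarithm, these differences understate changes of genes with low intensity. Neonatal arrays held cortex or cerebellum and embryonic arrays were labelled brain with no region, so age and region cannot be told apart. In bulk tissue, fewer cells of a type and less RNA per cell cannot be told apart either.

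**Figure D1:**
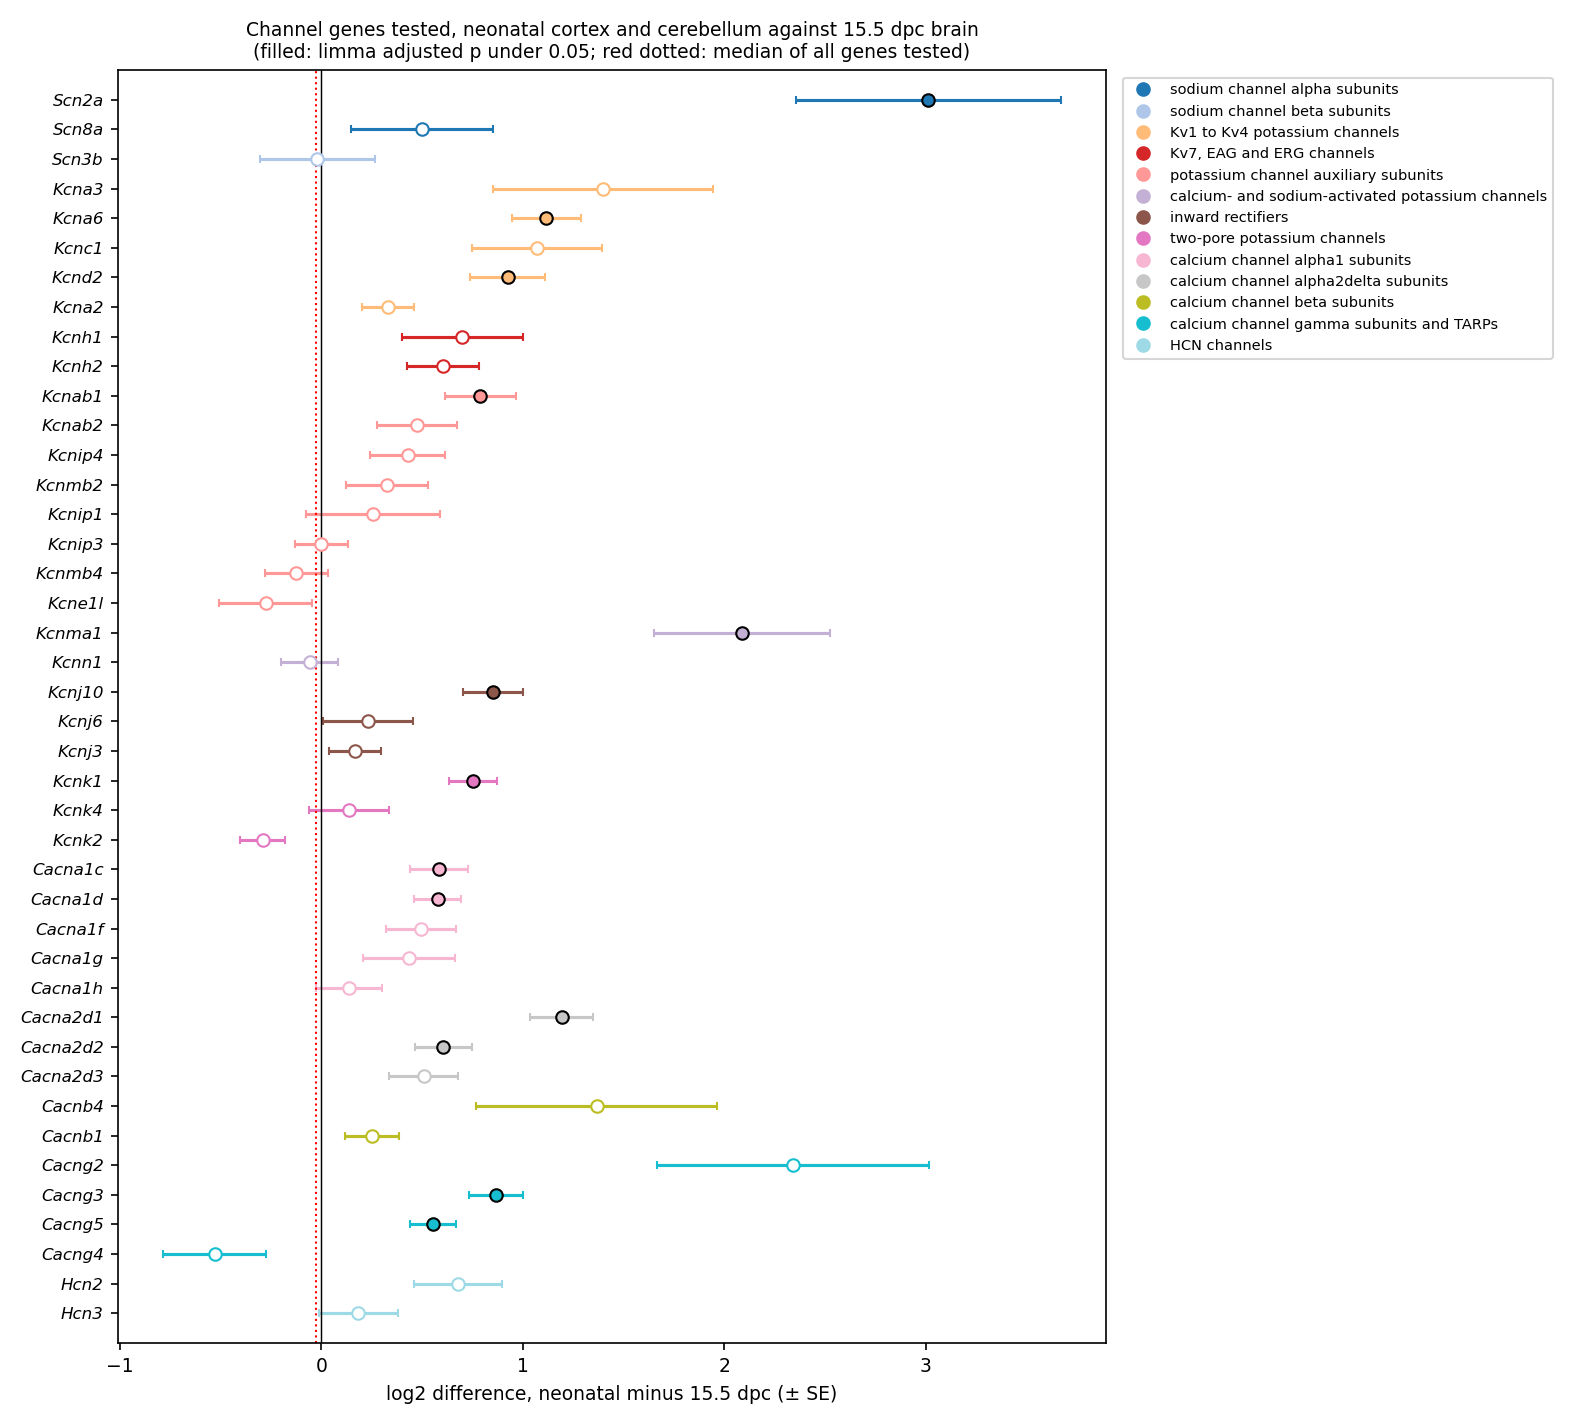
Log2 difference, neonatal minus 15.5 dpc, for each of the 42 channel genes tested, grouped by kind of subunit; points are limma estimates from 8 neonatal and 4 embryonic arrays, bars are standard errors, filled points have an adjusted p under 0.05, and the dotted line is the median of all genes tested. The 13 filled points all lie to the right of 0, from Cacng5 at 0.55 to Scn2a at 3.01, and Cacng4 at -0.53 lies farthest to the left.

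The count of 13 depended on the arrays at 15.5 dpc. Without 1 of them at a time it was 1 (MatDp7 replicate 1), 7 (MatDp7 replicate 2), 3 (PatDp7 replicate 1) or 2 (PatDp7 replicate 2), and the share of all genes called higher fell with it, to 0.405%, 1.95%, 0.625% and 0.368%. The estimates themselves moved little: over the 12 fits that each left out 1 array, the lowest was 0.50 for Cacna1c, which was still called in 2 of them, and 2.67 for Scn2a, called in 8. Cacna2d1 was the 1 gene called in all 12 of those fits, followed by Kcna6 in 11 and Kcnk1 in 10.

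Promoters of the 5 genes with the largest called rise are shown because these genes rose together, so that their sequence near the start of transcription can be seen beside their values. The sequences come from RefSeq (assembly GRCm38.p6) and run from 250 bases before to 50 bases after an annotated start, 5′ to 3′ on the gene's strand. Capitals mark a match, on either strand, to GGGCGG (the GC box) or TATAAA (the TATA box).
Scn2a, chr2:65668436-65668735, plus strand: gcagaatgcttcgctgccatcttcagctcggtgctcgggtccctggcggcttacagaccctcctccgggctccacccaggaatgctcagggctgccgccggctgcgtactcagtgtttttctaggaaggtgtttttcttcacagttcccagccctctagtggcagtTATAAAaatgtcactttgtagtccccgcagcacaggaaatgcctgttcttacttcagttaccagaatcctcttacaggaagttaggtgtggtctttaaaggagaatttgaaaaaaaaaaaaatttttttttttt
Kcnma1, chr14:24004156-24004455, minus strand: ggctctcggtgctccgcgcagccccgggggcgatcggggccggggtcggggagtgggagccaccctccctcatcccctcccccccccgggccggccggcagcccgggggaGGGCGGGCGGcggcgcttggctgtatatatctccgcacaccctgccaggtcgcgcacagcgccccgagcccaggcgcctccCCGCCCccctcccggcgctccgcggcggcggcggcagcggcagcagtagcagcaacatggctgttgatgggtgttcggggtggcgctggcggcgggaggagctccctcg
Cacna2d1, chr5:15934441-15934740, plus strand: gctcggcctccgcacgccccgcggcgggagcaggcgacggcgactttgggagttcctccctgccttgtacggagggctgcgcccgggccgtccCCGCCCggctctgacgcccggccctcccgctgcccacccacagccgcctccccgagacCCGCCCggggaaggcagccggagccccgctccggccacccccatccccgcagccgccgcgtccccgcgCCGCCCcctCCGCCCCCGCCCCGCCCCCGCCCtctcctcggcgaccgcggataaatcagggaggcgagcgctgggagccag
Kcna6, chr6:126740625-126740924, minus strand: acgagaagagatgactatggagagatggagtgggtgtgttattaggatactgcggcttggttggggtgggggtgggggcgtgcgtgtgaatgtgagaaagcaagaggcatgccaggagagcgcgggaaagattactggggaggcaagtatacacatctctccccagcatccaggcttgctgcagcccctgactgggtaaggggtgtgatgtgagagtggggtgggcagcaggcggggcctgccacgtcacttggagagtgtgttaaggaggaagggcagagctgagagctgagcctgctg
Kcnd2, chr6:21215096-21215395, plus strand: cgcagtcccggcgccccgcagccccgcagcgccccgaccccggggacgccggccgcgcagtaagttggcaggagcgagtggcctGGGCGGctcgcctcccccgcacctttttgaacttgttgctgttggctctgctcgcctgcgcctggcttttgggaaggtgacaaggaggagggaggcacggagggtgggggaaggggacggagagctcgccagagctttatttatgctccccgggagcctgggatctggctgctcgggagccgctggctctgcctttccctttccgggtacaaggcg
A second annotated start of Scn2a held no match to any motif searched, and neither did the start of Kcna6 shown.

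RefSeq promoters were found for 75 of the 94 genes and for all 13 that rose. GGGCGG stood in 47.1% of the 102 promoters of channel genes against 35.7% of all 32851 promoters of the same length. By gene, 9 of the 13 that rose had it in at least 1 promoter. Those 13 genes had 20 promoters, so the count by gene cannot be set beside the shares per promoter. The E-box letters CAGCTG stood in 28.4% of channel promoters against 16.3% of all, and TATAAA in 4.9% against 13.6%. CCAAT stood in 27.5% against 37.4%. The cyclic AMP response element TGACGTCA was in none of the 102 channel promoters and in 1.79% of all, and the core of the RE1 element, bound by the neuronal repressor REST, was in none and in 0.0365%. The exact RE1 letters searched matched only 12 of the 32851 promoters. Their absence from 102 therefore cannot show whether channel genes hold RE1 sites. The cyclic AMP letters were rare as well, so their absence from 102 promoters says little about channel genes. Median GC content was 58.8% in channel promoters and 52.7% in all. All motifs were searched on both strands, and a match says only that the letters are there.

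Sodium channels held the largest difference. Scn2a, the pore-forming subunit of the Nav1.2 channel at the axon initial segment of young neurons, had intensities of 2909, 844, 4664 and 1332 in cortex and 5552, 845, 8237 and 1226 in cerebellum (MatDp7 replicates 1 and 2, then PatDp7 replicates 1 and 2). At 15.5 dpc the 4 arrays, in the same order, gave 235, 153, 323 and 272, and the arrays at 13.5 dpc gave 98.5 and 76.0. Every neonatal array exceeded every embryonic array, and within the neonatal arrays all 4 of replicate 1 exceeded all 4 of replicate 2. The gene rose by 3.01 ± 0.658 (SE) from 15.5 dpc (limma adjusted p = 0.0233), and a second probe set rose by 1.67 ± 0.250 (adjusted p = 0.00727). Scn8a, whose Nav1.6 channel is known to replace Nav1.2 at mature initial segments, ran from 217 through a median of 546 to 910 in neonatal arrays and from 236 to 478 at 15.5 dpc. Its ranges overlapped, and the difference of 0.50 ± 0.354 did not pass (adjusted p = 0.351). Scn3b, an auxiliary beta subunit, overlapped fully, at 1509, 2139 and 3041 (lowest, median and highest neonatal array) against 1686 to 3035, with a difference of -0.020 ± 0.286 (adjusted p = 0.966).

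Among the pore-forming Kv channels of the Shaker, Shaw and Shal groups, 2 of 5 tested genes rose and the other 3 had positive differences. Kcna6, a Shaker-type delayed rectifier, had 589, 409, 778 and 502 in cortex, 673, 474, 723 and 544 in cerebellum, and 223, 238, 231 and 258 at 15.5 dpc. No neonatal value came near the embryonic ones, and the rise was 1.12 ± 0.170 (limma adjusted p = 0.00797). Kcnd2 encodes Kv4.2, which carries the fast inactivating A-type current of dendrites. It measured 749, 1078, 769 and 1058 in cortex, 1046, 1376, 976 and 1511 in cerebellum, and 539, 736, 480 and 396 at 15.5 dpc. The lowest neonatal array lay just above the highest embryonic one, the rise was 0.92 ± 0.185 (adjusted p = 0.0179), and its other 2 probe sets rose by 0.95 (adjusted p = 0.00563) and 1.13 (adjusted p = 0.0169).

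Other Kv genes had differences that did not pass. Kcnc1, a Shaw-type channel of fast-spiking neurons, ran from 337 through 600.0 to 968 in neonatal arrays and from 167 to 322 at 15.5 dpc, without overlap, for a difference of 1.07 ± 0.322 (limma adjusted p = 0.0626). Kcna3 ran from 181 through 404 to 1358 against 110 to 187 (1.40, adjusted p = 0.120), and its high values were all in replicate 1, at 561 to 1358, while replicate 2 stayed at 181 to 248. Kcna2, a Shaker-type channel of axons, differed by 0.33 ± 0.129 (adjusted p = 0.122).

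**Figure D2:**
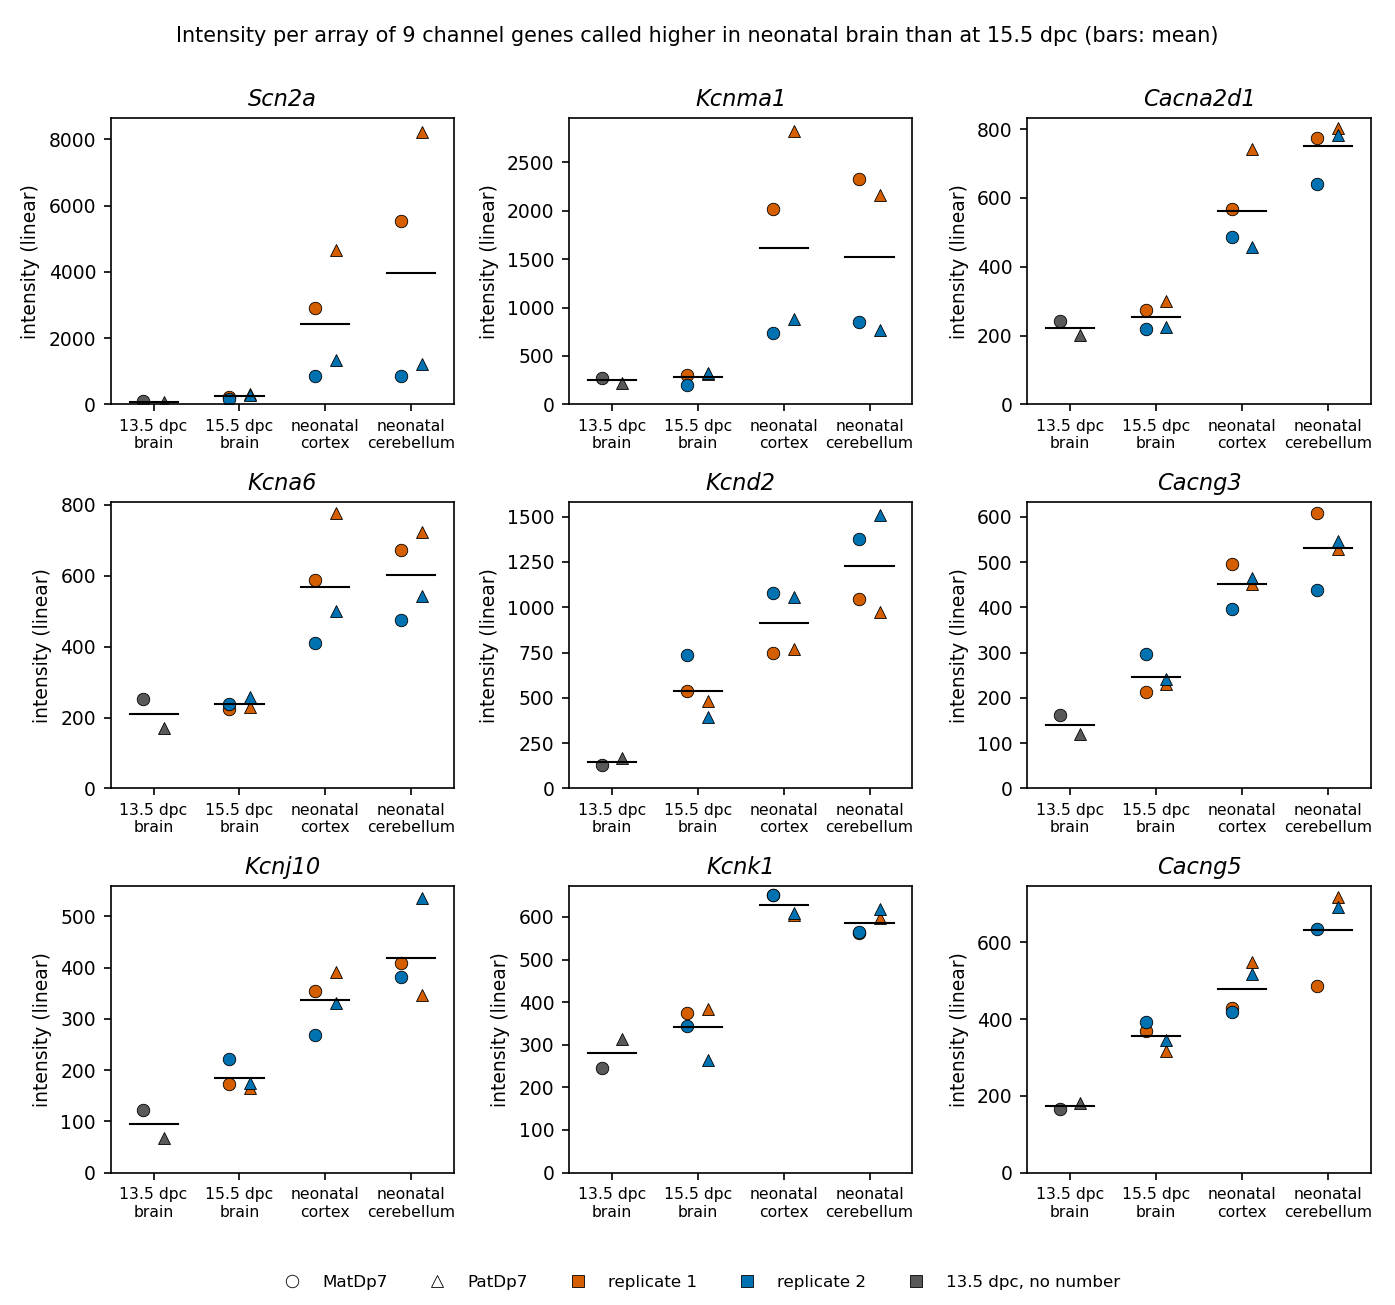
Linear intensity on each of the 14 arrays for 9 of the 13 genes called higher in neonatal brain than at 15.5 dpc; each point is 1 array, shape gives the duplication, colour the replicate number, and the bar is the group mean of a tissue. Neonatal points lie above the 15.5 dpc points in all 9 panels, and for Scn2a and Kcnma1 the replicate 1 points lie well above the replicate 2 points.

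The large-conductance calcium-activated channel gene Kcnma1, which encodes the BK pore that links calcium entry to repolarisation, had 2021, 735, 2825 and 880 in cortex and 2327, 850, 2159 and 769 in cerebellum. At 15.5 dpc it had 302, 202, 319 and 329, and at 13.5 dpc 272 and 224. As for Scn2a, all neonatal arrays exceeded all embryonic arrays and replicate 1 was higher than replicate 2 throughout. The rise was 2.09 ± 0.437 (limma adjusted p = 0.0206). Its auxiliary subunits did not move with it past the threshold: Kcnmb4, the neuronal BK beta subunit, ran from 553 through 772 to 1161 against 789 to 940 and differed by -0.12 ± 0.158 (adjusted p = 0.605), and Kcnmb2 differed by 0.33. Kcnn1, a small-conductance calcium-activated channel, differed by -0.058.

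Of 8 tested auxiliary subunits of potassium channels, 1 rose. Kcnab1, a cytoplasmic beta subunit of Shaker channels that speeds inactivation, had 474, 281, 517 and 381 in cortex, 485, 320, 372 and 368 in cerebellum, and 222, 189, 243 and 173 at 15.5 dpc. The groups did not overlap, and the rise was 0.79 ± 0.177 (limma adjusted p = 0.0255). The KChIP genes encode calcium-binding partners of Kv4 channels. Kcnip4 differed by 0.43 ± 0.187 (adjusted p = 0.154), Kcnip1 by 0.25 ± 0.333 (adjusted p = 0.617) and Kcnip3 by -0.0012 ± 0.132 (adjusted p = 0.995). Probe sets disagreed for the first pair: a second Kcnip4 probe set rose by 0.54 (adjusted p = 0.0387), and a second Kcnip1 probe set, which gave 666 to 1132 in neonatal arrays and 421 to 622 at 15.5 dpc, rose by 0.68 (adjusted p = 0.0137). Kcne1l had the most negative difference of this kind, -0.28 ± 0.233 (adjusted p = 0.427).

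Inward rectifiers and two-pore potassium channels set the resting potential, and each kind had 1 of 3 tested genes that rose. Kcnj10, the Kir4.1 channel through which astrocytes take up potassium, had 355, 268, 392 and 332 in cortex, 409, 381, 346 and 536 in cerebellum, and 173, 221, 165 and 175 at 15.5 dpc. All 8 neonatal arrays were above all embryonic ones (0.85 ± 0.149, limma adjusted p = 0.0125). Of 6 tested astrocyte markers, 2 were called higher in the same comparison (Aqp4 by 2.72 and Gfap by 1.11) and none lower. Slc1a3 (0.89) and Gja1 (-0.62) did not pass (limma adjusted p = 0.0881 and 0.101). The summed intensity of that list was 7561 to 13551 in neonatal replicate 1 and 8458 to 13530.2 in replicate 2. At 15.5 dpc it was 7613 to 8313, inside the replicate 1 range, and in cortex 7561 to 9834. The part of these markers in the Kcnj10 result was not tested. Kcnk1, the TWIK-type two-pore channel, had 652, 651, 604 and 610 in cortex, 563, 565, 596 and 619 in cerebellum, and 374, 345, 384 and 264 at 15.5 dpc. The neonatal arrays lay close together and well above the embryonic ones, for a rise of 0.75 ± 0.120 (adjusted p = 0.00928). Kcnk2, the TREK-type channel opened by membrane stretch, differed by -0.29 ± 0.112 (adjusted p = 0.116), and the G-protein-gated Kcnj3 and Kcnj6 by 0.17 and 0.23.

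All 5 tested pore-forming alpha1 subunits of calcium channels had positive differences, and 2 genes of L-type channels rose. Cacna1c (Cav1.2) had 268, 261, 455 and 347 in cortex, 242, 236, 317 and 209 in cerebellum, and 131, 181, 187 and 197 at 15.5 dpc, a rise of 0.58 ± 0.144 (limma adjusted p = 0.0345). Cacna1d (Cav1.3) had 339, 336, 390 and 367, then 411, 315, 326 and 284, against 215, 190, 224 and 227, a rise of 0.58 ± 0.116 (adjusted p = 0.0182). Neither gene overlapped with 15.5 dpc, although the lowest cerebellar array of Cacna1c stood close to the highest embryonic array. Cacna1g, a low-voltage-activated T-type channel, ran from 322 through 389 to 509 against 161 to 422 and did not pass (0.44 ± 0.228, adjusted p = 0.221).

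The alpha2delta subunits, which bring calcium channels to the membrane, had 2 of 3 genes that rose. Cacna2d1 had 567, 486, 743 and 456 in cortex, 775, 640, 802 and 782 in cerebellum, 273, 218, 301 and 225 at 15.5 dpc, and 244 and 202 at 13.5 dpc. The neonatal and embryonic arrays were far apart, and the gene rose by 1.19 ± 0.156, with the smallest adjusted p of the 42 (limma, 0.00551). Cacna2d2 had 740, 624, 639 and 761 in cortex, 1040, 859, 1154 and 942 in cerebellum, and 483, 574, 611 and 451 at 15.5 dpc. Its cortical arrays began just above the embryonic ones, and the rise was 0.61 ± 0.140 (adjusted p = 0.0279). Cacna2d3 differed by 0.51 ± 0.170 (adjusted p = 0.0842).

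The cytoplasmic beta subunits did not pass. Cacnb4 ran from 122 through 321 to 1051 in neonatal arrays and from 92.3 to 125 at 15.5 dpc, a difference of 1.37 ± 0.599 (limma adjusted p = 0.156), with replicate 1 at 457 to 1051 and replicate 2 at 122 to 185. Cacnb1 differed by 0.25 ± 0.134 (adjusted p = 0.232).

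Among the gamma subunits and TARPs, 2 of 4 tested genes rose. Cacng3, a TARP of the type I group, had 496, 397, 452 and 464 in cortex, 608, 438, 529 and 547 in cerebellum, and 214, 297, 230 and 242 at 15.5 dpc, a rise of 0.87 ± 0.136 without overlap (limma adjusted p = 0.00896). Cacng5 had 429, 418, 549 and 516, then 485, 633, 718 and 692, against 370, 392, 317 and 345, a rise of 0.55 ± 0.113 (adjusted p = 0.0187). The other probe set of this gene gave 0.31, short of the threshold (adjusted p = 0.292). Cacng2, which encodes stargazin, ran from 343 through 1094 to 5195 against 110 to 328. Its groups did not overlap, but its difference of 2.34 ± 0.674 did not pass (adjusted p = 0.0557). Cacng4 went the other way, from 744 through 1341 to 2058 against 1133 to 3037, at -0.53 ± 0.256 (adjusted p = 0.190).

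The HCN channels open on hyperpolarisation and pace rhythmic firing. Hcn2 had 321, 257, 170 and 327 in cortex, 345, 292, 198 and 440 in cerebellum, and 156, 209, 147 and 129 at 15.5 dpc, a difference of 0.68 ± 0.219 that did not pass (limma adjusted p = 0.0764). Hcn3 differed by 0.18 ± 0.197 (adjusted p = 0.537).

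Cell type markers changed in this comparison as well. Of 12 tested neuronal markers 2 were higher (Syt1 by 0.82 and Rbfox3 by 1.45) and none lower, and their summed intensity was 52098 to 66669 in neonatal replicate 1, 47608 to 52492 in replicate 2 and 37570 to 42702 at 15.5 dpc. Rbfox3 itself was at 772 to 969 in replicate 1, 273 to 358 in replicate 2 and 139 to 209 at 15.5 dpc. Of 10 tested markers of dividing progenitors, 5 were lower, with a summed intensity of 8787 to 11333 in replicate 1 and 6947 to 9422 in replicate 2 against 13430.5 to 19501. Blood markers were lower in 3 of 4, with sums of 907 to 1500.4 and 427 to 818 against 3025 to 8261, and markers of meninges and mesenchyme in 3 of 8, with sums of 3238 to 10748 and 4159.6 to 9453 against 10262 to 13019. The part of these changes in the channel results was not tested.

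The rise was read again within the neonatal replicate numbers, because replicate 1 stood apart. Fits without replicate 1 or without replicate 2 kept 1 array in each neonatal group. Their p-values therefore rest on the spread between the 15.5 dpc replicates and hold none of the neonatal spread. This limit applies to every fit below with 1 neonatal replicate number alone. Without the 4 neonatal replicate 1 arrays, 18 of the 42 genes were called higher than at 15.5 dpc and none lower, 11 of them among the 13 named above, while 7.17% of all genes were called higher and 8.64% lower. Without the replicate 2 arrays 24 were higher and 2 lower, with 21.4% and 25.8% of all genes, and all 13 were among them. With the neonatal replicate number as a block, 26 were higher and 2 lower, with 18.6% and 23.1% of all genes, and again all 13 were among them.

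Single genes differed more between the numbers than the counts did. Scn2a exceeded 15.5 dpc by 1.91 with replicate 2 alone and by 4.12 with replicate 1 alone (limma adjusted p = 0.00192 and 7.95e-05), and Kcnma1 by 1.36 and 2.82. Cacna2d1 (1.05 and 1.33), Kcnk1 (0.76 and 0.75), Kcnj10 (0.84 and 0.86) and Cacng3 (0.79 and 0.95) were close to equal. The 2 calls lost with replicate 2 alone were Cacna1c (0.47, adjusted p = 0.0646) and Cacna2d2 (0.54, adjusted p = 0.0515). Of the 42 genes, 21 lay wholly above 15.5 dpc in replicate 1 and 21 in replicate 2, where 18.8% and 11.7% of all genes did so, and over all 8 neonatal arrays 15 did so against 5.16% of all genes.

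Between the neonatal replicate numbers themselves, 10 of the 42 genes were higher in replicate 1 and 8 lower (limma adjusted p under 0.05, in the fit with the neonatal replicate block), against 19.1% and 21.5% of all genes, so the members' shares were near the background. Cacng2 (2.24), Scn2a (2.21), Cacnb4 (1.99), Kcna3 (1.83) and Kcnma1 (1.46) had the largest positive differences, and Kcnip1 (-1.08), Scn8a (-1.07) and Scn3b (-0.81) the largest negative ones. Scn8a had 637, 910, 726 and 649 in neonatal replicate 2 and 217 to 454 in replicate 1, so that it exceeded 15.5 dpc by 1.03 with replicate 2 alone (adjusted p = 0.0192) and differed by -0.033 with replicate 1 alone. Kcnip1 was alike, at 0.79 (adjusted p = 0.0142) and -0.29.

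**Figure D3:**
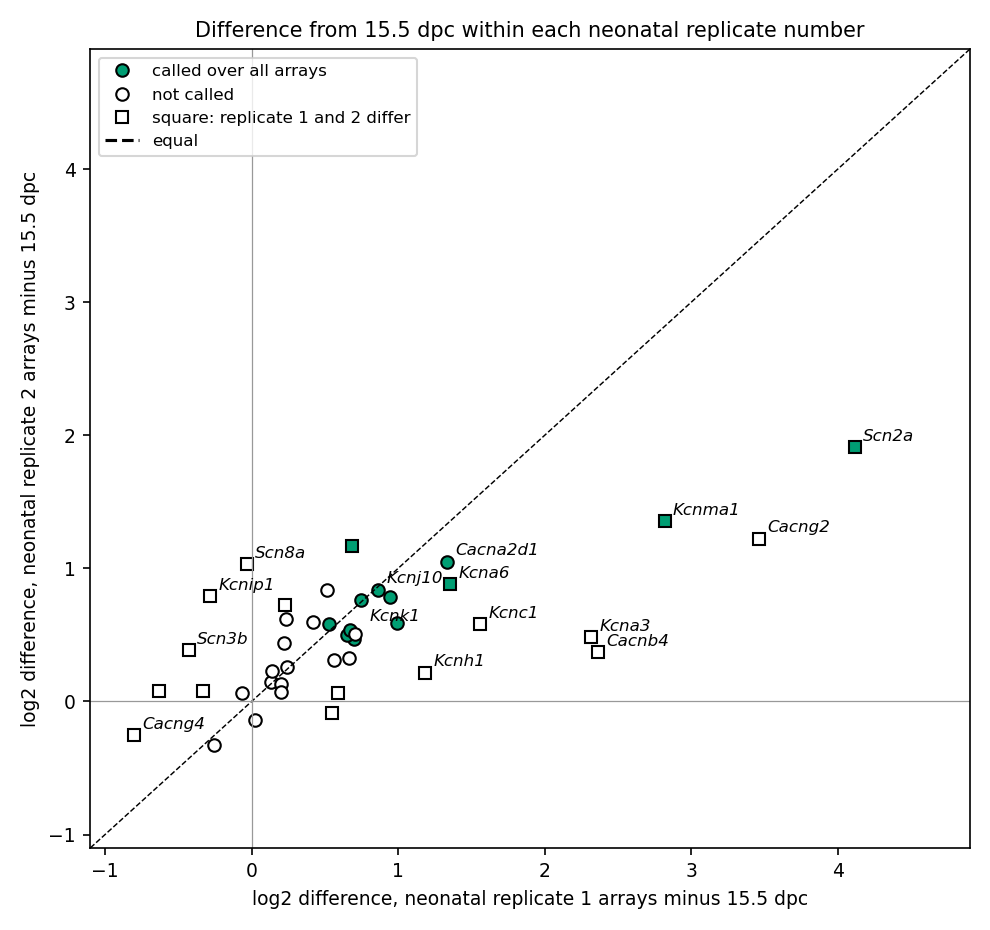
Log2 difference from the 4 arrays at 15.5 dpc, with neonatal replicate 1 arrays on the x axis and neonatal replicate 2 arrays on the y axis, for the 42 channel genes tested; filled symbols were called over all arrays, squares differed between the replicate numbers (limma adjusted p under 0.05), and the dashed line marks equal differences. Scn2a, Kcnma1, Cacng2, Kcna3 and Cacnb4 lie far below the line and Scn8a, Kcnip1 and Scn3b above it, while Cacna2d1, Kcnk1 and Kcnj10 lie near it.

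By region, against the same 4 embryonic arrays, 8 of the 42 genes were higher in cortex and none lower, against 1.7% and 3.95% of all genes. In cerebellum 11 were higher and 1 lower, against 2.72% and 4.71%. With all arrays scaled to the same median, 5 were called in cortex, and the shares of all genes there became 0.833% and 4.67%. Cacna2d1 rose by 0.99 ± 0.180 in cortex and 1.39 ± 0.180 in cerebellum (limma adjusted p = 0.0234 and 0.00623), Kcna6 by 1.07 and 1.16, Kcnma1 by 2.11 and 2.07, and Kcnk1 by 0.80 and 0.71. Scn2a passed in cerebellum (3.21 ± 0.760, adjusted p = 0.0387) and not in cortex (2.81 ± 0.760, adjusted p = 0.0630). The gene lower in cerebellum was Kcnk2, at 830, 740, 898 and 846 against 1221, 1262, 1200 and 1105 at 15.5 dpc, where it fell by 0.51 ± 0.129 (adjusted p = 0.0476). That call was lost in all 12 fits that left out 1 array. Without 1 array at a time the count ranged from 0 to 9 in cortex and from 1 to 12 in cerebellum. In cortex it was 1 without PatDp7 replicate 1 of 15.5 dpc and 0 without each of the other 3 arrays of that age. The share of all genes called higher fell as well, to 0.172% without that array and to 0.0123%, 0.503% and 0% without MatDp7 replicate 1, MatDp7 replicate 2 and PatDp7 replicate 2. The cortex count was 0 without cortex MatDp7 replicate 1 (0.172% of all genes higher), and 1 without cortex MatDp7 replicate 2 (0.245%) or PatDp7 replicate 1 (0.405%). In cerebellum it was 1 without 15.5 dpc MatDp7 replicate 1 (0.601%) or PatDp7 replicate 2 (0.368%) and 3 without PatDp7 replicate 1 (0.699%). It was 4 and 5 without the MatDp7 and PatDp7 replicate 1 arrays of cerebellum (0.846% and 1.21%).

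The neonatal replicate numbers moved these counts too. With replicate 2 alone, 8 genes were higher in cortex (3.02% of all genes higher, 4.14% lower) and 12 in cerebellum (4.34% and 4.48%), with none of the 42 lower. With replicate 1 alone, 17 were higher and 2 lower in cortex (19.9% and 20.5%), and 22 higher and 3 lower in cerebellum (15.1% and 20.4%). With the neonatal replicate block these were 20 and 0 in cortex (17.0% and 19.7%) and 25 and 3 in cerebellum (15.1% and 19.6%).

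The direct comparison of the regions called none of the 42 genes (limma adjusted p under 0.05), where 0.221% of all genes were higher in cortex and 0.172% lower. An unadjusted p under 0.05 was reached by 5 of the 42 and by 1005 of all 13576 probe sets tested. In the test on simulated data for this comparison, 46% of probe sets changed by 1 on the log2 scale were recovered and 2% of those changed by 0.5. The simulated noise was independent between arrays, unlike that of the neonatal arrays, so these shares may not hold for the real data. Kcnk2 had the smallest p, with 1182, 1041, 1104 and 1202 in cortex and 830, 740, 898 and 846 in cerebellum, a difference of 0.43 ± 0.129 (adjusted p = 0.386). Its arrays did not overlap. Hcn3 (-0.63 ± 0.227, adjusted p = 0.534) and Cacna2d2 (-0.50 ± 0.161, adjusted p = 0.452) lay wholly lower in cortex, and 1 gene wholly higher and 2 wholly lower stand beside 3.19% and 3.11% of all genes. Kcnmb4 differed by 0.51, Cacna1c by 0.33 and Cacng5 by -0.36 (adjusted p = 0.531, 0.738 and 0.535). With the neonatal replicate block 2 genes passed, Kcnmb4 higher in cortex (adjusted p = 0.0325) and Cacng2 lower (-1.04, adjusted p = 0.0244), against 1.63% and 1.99% of all genes. None of the 42 passed with replicate 2 alone, where 0.245% and 0.208% of all genes did, or with replicate 1 alone, where 0.441% and 0.417% did.

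The embryonic comparison asked which channel genes differed between 13.5 and 15.5 dpc. Of the 42 genes, 5 were higher at 15.5 dpc and none lower (limma adjusted p under 0.05), against 2.44% and 3.36% of all genes. An unadjusted p under 0.05 was reached by 14 of the 42 and by 2566 of all 13576 probe sets tested. The difference was positive for 32 of 42, with a median of 0.40 against -0.018 over all genes. The 13.5 dpc groups hold 1 array each and are assumed to vary like the other groups. Hcn3 had 178 and 39.96 at 13.5 dpc and 435, 719, 393 and 539 at 15.5 dpc, and rose by 1.95 ± 0.278 (adjusted p = 0.00786). The lower of its early arrays lay under the added constant, so the size of that rise is partly set by the constant. Kcnd2 had 129 and 169 against 539, 736, 480 and 396, and rose by 1.53 ± 0.262 (adjusted p = 0.0148). Kcnk2 had 523 and 485 against 1221, 1262, 1200 and 1105, and rose by 1.17 ± 0.158 (adjusted p = 0.00669). Cacna2d2 rose by 0.86 ± 0.198 (adjusted p = 0.0418) and Cacng5, at 166 and 181 against 317 to 392, by 0.85 ± 0.159 (adjusted p = 0.0202).

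Kcnd2, Cacna2d2 and Cacng5 were thus called higher in both steps, the later one over cortex and cerebellum together, and both steps share the 4 arrays at 15.5 dpc. By region, these genes passed against 15.5 dpc in cerebellum and not in cortex. Kcnk2 and Hcn3 rose before 15.5 dpc and did not pass from 15.5 dpc to the neonatal stage, and the difference between the steps was not tested. Scn3b had 886 and 755 at 13.5 dpc and 1686, 3035, 2226 and 1925 at 15.5 dpc, without overlap, and its difference of 1.35 ± 0.404 did not pass (limma adjusted p = 0.0959). Cacna1g had 576 and 538 at 13.5 dpc and 161, 422, 253 and 357 at 15.5 dpc, so it was lower in every later array, by a difference of -0.86 ± 0.322 that did not pass (adjusted p = 0.178). Cacna1f (-0.51) and Cacna1d (-0.16) were the other members with the smallest p in that direction. In all, 22 of the 42 genes lay wholly above the arrays at 13.5 dpc and 2, Cacna1d and Cacna1g, wholly below, where 23.5% and 23.2% of all genes did so. The 5 calls became 2 without 15.5 dpc MatDp7 replicate 2 (0.699% of all genes higher) or PatDp7 replicate 1 (0.589%), and 3 without PatDp7 replicate 2 (0.858%), so the share of all genes fell too. Hcn3 and Kcnk2 were called in all 12 fits. These fits share their estimate of the spread with the neonatal arrays, and 15 genes were higher without neonatal replicate 1 (8.91% of all genes higher, 8.13% lower) and 15 without neonatal replicate 2 (8.94% and 8.15%). With the neonatal replicate block 15 were higher and 1 lower (12% and 10.2%).

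**Figure D4:**
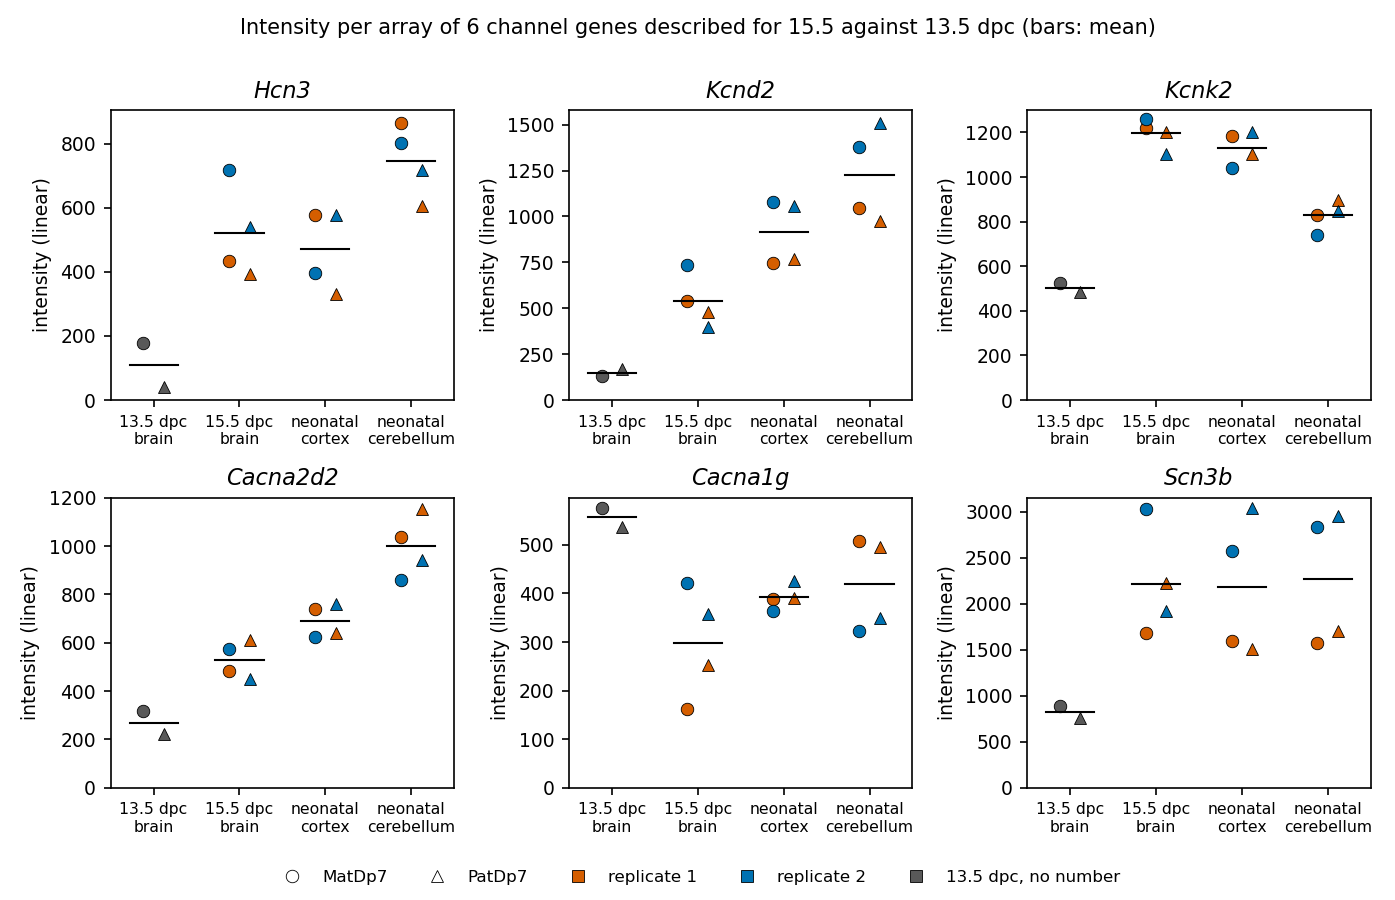
Linear intensity on each of the 14 arrays for 6 channel genes described for the embryonic comparison; points, colours and bars are as in the plot of the rising genes. Hcn3, Kcnd2, Kcnk2 and Cacna2d2 step up between 13.5 and 15.5 dpc, Kcnk2 lies at 1041 to 1202 in neonatal cortex and 740 to 898 in neonatal cerebellum, and Cacna1g is higher at 13.5 dpc than in any later array.

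Marker sums of other tissues were higher at 13.5 dpc. The summed intensity of the blood markers was 29773 and 35246 at 13.5 dpc against 3025 to 8261 at 15.5 dpc, most of it from the embryonic globins Hbb-y (11701 and 12207 at 13.5 dpc) and Hba-x (12673 and 17328). The sum was, for meninges and mesenchyme, 37859 and 38577 against 10262 to 13019, and for skeletal muscle 4285 and 5446 against 481 to 605. Neuronal markers summed to 14660.2 and 18457 against 37570 to 42702. Their part in the channel results was not tested.

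The last comparison asked whether channel genes depend on the parental origin of the duplicated segments. Averaged over the 3 replicated tissues, none of the 42 genes differed between PatDp7 and MatDp7 (limma adjusted p under 0.05). Over all genes tested, 0.0368% were higher and 0.0245% lower. An unadjusted p under 0.05 was reached by 1 of the 42 and by 194 of all 13576 probe sets tested. In the test on simulated data for this comparison, 76% of probe sets changed by 1 were recovered and 10% of those changed by 0.5. These shares too come from noise that was independent between arrays and may not hold for the real data. Chromosome 7 holds 10 members and chromosome 15 holds 5, and the labels do not say where the duplicated segments end. The labels call these segments proximal, so a member on either chromosome may lie outside them. The tested members on chromosome 7 were Cacng3, with a difference of 0.0043 ± 0.128, and Kcnc1, at 0.20 ± 0.304. Those on chromosome 15 were Cacng2, at 0.44 ± 0.635, and Scn8a, at 0.12 ± 0.333. None of the 15 was called without the filter on low values.

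The gene with the smallest p was Kcnk4, a TRAAK-type two-pore channel on chromosome 19. In cortex it had 57.5 and 90.6 in MatDp7 and 308 and 336 in PatDp7, and in cerebellum 187 and 199 against 299 and 116. At 15.5 dpc it had 130 and 121 against 205 and 184. The groups were apart in cortex and at 15.5 dpc and overlapped in cerebellum, and the mean difference of 0.68 ± 0.185 did not pass (limma adjusted p = 1.0). The difference in cortex alone was 1.58 ± 0.321 (adjusted p = 0.623). Cacng4 (0.50), Cacna1c (0.28), Hcn3 (-0.23), Kcnip1 (-0.32) and Cacna2d3 (-0.16) had the next smallest p in each direction, all with an adjusted p of 1.0. A test of whether the duplication's effect differed between tissues called none of the 42 (limma F-test), where 0% of all genes were called. Its unadjusted p was under 0.05 for 1 of the 42, Kcnk4 (0.0178), and for 67 of all 13576 probe sets tested. In the fits with the neonatal replicate block or without neonatal replicate 1 or 2, none of the 42 passed in either test of the duplication. The share of all genes lower in PatDp7 was then 0.0613%, 0.0245% and 0.135%, and the tissue test without replicate 2 called 0.0123%.

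**Figure D5:**
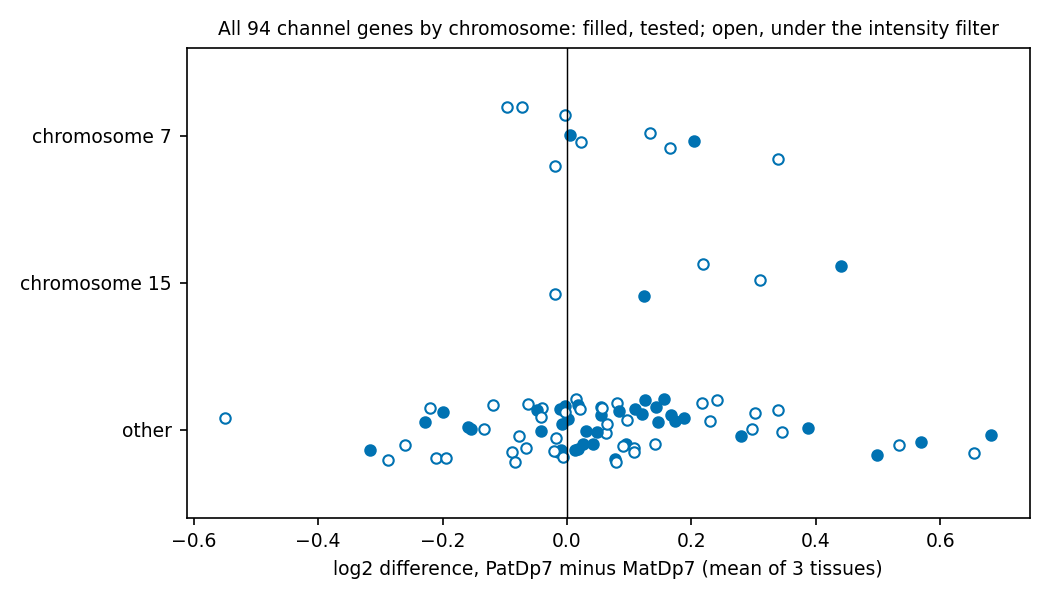
Log2 difference, PatDp7 minus MatDp7, averaged over cortex, cerebellum and 15.5 dpc brain, for all 94 channel genes by chromosome; filled points were tested, open points lay under the intensity filter, and the vertical scatter within a row carries no value. The 10 members on chromosome 7 lie between -0.096 and 0.34, inside the range of -0.55 to 0.68 on the other chromosomes.

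The 52 members under the filter were fitted without it, and the fit's calls are described apart because the low intensities carry less signal. Of all 94 members, that fit called 15 higher in neonatal brain than at 15.5 dpc and 1 lower. Of all 12393 genes it called 287 higher and 538 lower. From 15.5 dpc to neonatal brain, Kcna1 (Kv1.1) rose by 1.78 (limma adjusted p = 0.0185), with 22.1 to 39.2 at 15.5 dpc, 303 to 427 in neonatal replicate 1 and 78.1 to 264 in replicate 2. Scn1a (Nav1.1), whose loss causes a severe childhood epilepsy, rose by 1.26 (adjusted p = 0.0245), from 19.7 to 106 up to 161 to 377 in replicate 1 and 110.5 to 175 in replicate 2, and its second probe set rose by 0.81 (adjusted p = 0.0174). Kcnn2, a small-conductance calcium-activated channel, rose by 0.76 (adjusted p = 0.0331), from 83.1 to 126 up to 168 to 282 and 159.5 to 215 in replicates 1 and 2. Kcnj8, the Kir6.1 subunit known from mural cells of blood vessels, fell by 0.86 (adjusted p = 0.0444), with 131 to 285 at 15.5 dpc, 28.8 to 173 in neonatal replicate 1 and 41.9 to 116 in replicate 2. In cortex against 15.5 dpc Kcna1 rose by 1.96 (adjusted p = 0.0333) and Kcnj8 fell by 1.21 (adjusted p = 0.0377). Kcnc4 (1.65, adjusted p = 0.0331) and Cacnb2 (1.08, adjusted p = 0.0238) rose in cerebellum against 15.5 dpc. Kcne4 fell by 2.79 from 13.5 to 15.5 dpc (adjusted p = 0.0102), from 451 and 428 to between 13.6 and 22.8, values under the added constant that make the size of the fall depend on it. The N-type Cacna1b had 53.6 to 228 in neonatal replicate 2, 286 to 1046 in replicate 1 and 38.6 to 48.9 at 15.5 dpc. The P/Q-type Cacna1a had 113 to 318 in neonatal arrays and 77.6 to 142 at 15.5 dpc, and neither gene passed on these probe sets. A second, dimmer probe set of Cacna1a, also under the filter, was at 160.4 to 272 in neonatal replicate 1, 104 to 139 in replicate 2 and 40.1 to 59.6 at 15.5 dpc, and rose by 1.03 (limma adjusted p = 0.0204), and by 1.19 in cerebellum (adjusted p = 0.0267). Scn3a, Kcnip2, Cacna1e, Cacng7 and Cacng8 also lay under the filter and were called in none of these fits.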

How the data were processed

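Brains were measured on 14 Affymetrix 430A arrays. The deposited intensity values are, per the submitters' processing notes, from MAS5, and the authors' scaling shows in each array's 2% trimmed mean of 500.1. The table held 22690 probe sets; 64 controls were left out, and of the other 22626, 20380 carried 1 gene symbol, 691 several and 1555 none in the platform annotation. Intensities were taken to log2 after adding 52.0, their 20th percentile. The 13576 probe sets above the 40th percentile of mean log2 intensity were fitted in limma 3.58.1 (R 4.3.3) with 8 group means and a trended prior (6 residual and 3.15 prior degrees of freedom), Benjamini-Hochberg adjusted over all of them, and called at 0.05. Summaries used Python 3.11.15 with pandas 2.3.3, and figures matplotlib 3.10.9. Precision is limited by the number of arrays.

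The members, gene lists and motifs were chosen with earlier results of these data known, the motifs after a wider look at the same promoters. Genes named by rule were called members in each direction by size (up to 12 for neonatal minus 15.5 dpc, 8 for the regions and 5 for 15.5 minus 13.5 dpc), the 3 with the smallest p where fewer than 3 were called, the 3 with the smallest p in each direction for the duplications, and a set of well-known subunits whatever their values. Other genes named were chosen after their values were seen. The labels number the replicates in every replicated group. Same-numbered deviations from the group means correlated at 0.71 to 0.816 in the 6 neonatal pairs of groups and at -0.0922 to 0.264 in the 9 other pairs. The labels do not say what a number shares, and no pairing was used in the fit reported. Alternatives were another constant, no filter, quantile or median scaling, the mean of a gene's probe sets, an additive model, replicate blocks, and arrays left out. The fit was tested on simulated data of 13576 probe sets. For neonatal minus 15.5 dpc it recovered 52% of changes of 1 on the log2 scale, and for 15.5 minus 13.5 dpc 24%. Noise was drawn independently for each array, whereas same-numbered neonatal arrays deviated together, so these shares may not hold for the arrays measured.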

Additional observations from a re-analysis of the deposited data

How the results depend on the processing

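Of 51 named gene values, 43 kept their direction under the 23 alternatives. The neonatal against 15.5 dpc count of 13 genes became 23 with the replicate block (26.4% of all genes called) and 28 with the neonatal replicate block, and ranged from 1 to 26 with arrays left out. The cortex count of 8 became 5 with arrays scaled to the same median, 17 with the replicate block (18.8%) and 20 with the neonatal replicate block, and ranged from 0 to 19 with arrays left out. The cerebellum count of 12 became 21 (19.2%) and 28 under these blocks and ranged from 1 to 25. The cortex against cerebellum count of 0 became 2 with the neonatal replicate block. The 15.5 against 13.5 dpc count of 5 became 9 with the additive model (11.3%), 9 with the replicate block (12.7%) and 16 with the neonatal replicate block, and ranged from 2 to 15 with arrays left out. The cause of these changes was not tested. The comparison of the neonatal replicate numbers with each other, and the counts of non-overlapping arrays within each number, were chosen after seeing the data. Between neonatal and 15.5 dpc, the values without neonatal replicate 1 and without replicate 2 had opposite signs for Kcne1l (0.075 and -0.63), Scn3b (0.39 and -0.43), Kcnmb4 (0.079 and -0.33), Kcnip3 (0.062 and -0.064), Scn8a (1.03 and -0.033) and Kcnip1 (0.79 and -0.29). Kcnj6 (-0.088 and 0.55) and Kcnn1 (-0.14 and 0.025), which are not among the 51 values, had opposite signs too. Scn3b was 0.14 with the mean of its probe sets and 0.031 to 0.19 in 6 fits without 1 array, and Kcnip3 was 0.00076 with a constant of 200 and 0.00082 to 0.050 in 6 such fits. In PatDp7 minus MatDp7, the same held for Hcn3 (0.026 and -0.48) and Cacna2d3 (0.060 and -0.38). Median scaling moved the median of all genes to -0.12 in cortex minus 15.5 dpc and to 0.11 in 15.5 minus 13.5 dpc. Array signal limits what can be said of the 52 genes under the filter.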

Other observations

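Lists of genes that work with channels moved in the same comparison, neonatal against 15.5 dpc, where 4.01% of all genes tested were called higher and 7.32% lower. Of 9 tested ion pumps and chloride transporters, 7 were higher and none lower (limma adjusted p under 0.05), with a median difference of 1.10 on the log2 scale. Slc12a5, the KCC2 transporter that lowers chloride in maturing neurons, rose by 1.44 ± 0.246 (limma adjusted p = 0.0116), the calcium pump Atp2b2 by 1.44 ± 0.168 (adjusted p = 0.00407) and the sodium pump subunit Atp1b1 by 1.14 ± 0.118 (adjusted p = 0.00353). Of 16 tested transmitter-gated channels 7 were higher and none lower, with a median of 0.75, among them the GABA receptor subunit Gabrb1 (1.002 ± 0.191), the glycine receptor subunit Glrb (0.91 ± 0.219) and the AMPA receptor subunit Gria3 (0.74 ± 0.139). Of 19 tested anchoring and partner proteins of channels, 6 were higher and 1 lower, with a median of 0.41. Cntn1, a cell adhesion protein of axons, rose by 2.99 ± 0.536 (adjusted p = 0.0136), with 9947 to 21042 in neonatal replicate 1, 3508 to 6126 in replicate 2 and 659 to 1396 at 15.5 dpc. The Kv4 partner Dpp6 rose by 0.67 ± 0.125 (adjusted p = 0.0155), and Cntnap2, which gathers Shaker channels beside nodes of Ranvier, fell by 0.72 ± 0.121 (adjusted p = 0.0109). Slc12a5 was at 1863 to 4508 in replicate 1 and 2751 to 5310.3 in replicate 2, and Dpp6 at 1393 to 1732 and 1372 to 1731. The lists were chosen with earlier results of these data known.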
